A study of Mus musculus with 96 samples.

Results

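The small proline-rich protein (Sprr) genes were followed in 96 single daughter cells of cultured mouse horizontal basal cells, which made up 48 sister pairs. The description covers 9 genes, given by name: Sprr1a, Sprr1b, Sprr2a1, Sprr2a2, Sprr2d, Sprr2e, Sprr2f, Sprr2h and Sprr3. These 9 rows were read out of 55487 gene rows, and 17 rows in all carried a Sprr symbol. The 9 genes had been selected with measured values of these same cells in view, so their levels, their spread and the likeness of sisters are given as a description and not as a test.

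Horizontal basal cells are the reserve stem cells of the olfactory epithelium, which lie on the basal lamina and divide after injury. The labels put all 96 cells in 1 group. Wild-type adult mice 6 to 8 weeks old were given methimazole, a drug that destroys the olfactory epithelium. The tissue was taken 2 days later, and the basal cells were grown in dishes. After a mother cell had divided, its daughters were picked one by one with their pairing noted. Polyadenylated RNA of each cell was sequenced (the G&T-seq method), and ERCC RNA had been added to each lysate as a spike-in. The labels name no mouse or culture, so the cells stand for 1 sample of 1 condition, and no p-value was computed between them.

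Small proline-rich proteins are short, repetitive precursors of the cornified envelope, the cross-linked protein shell under the membrane of stratified epithelial cells. Transglutaminases join them to involucrin, loricrin and each other. The genes lie side by side in the epidermal differentiation complex, with the Lce, Ivl, Lor and S100 genes, and several rise in injured or stressed epithelia outside the skin.

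The cells held between 29454150 and 44849003 gene counts, with a median of 36152760. Trp63, Krt5 and Krt14, the defining markers of horizontal basal cells, were counted in all 96 cells. Their lowest raw counts were 37, 6760 and 691, beside medians of 6999, 106400 and 135243. These low counts were not set against the level in cells sharing a number, which is described below. The sustentacular markers Ermn, Sult1c1 and Sec14l3, the fibroblast marker Dcn and the secretory markers Scgb1a1 and Muc5b were at 0 in every cell. Other genes of these marker lists were counted in some cells: Cyp2g1 in 1 and Col1a2 in 5, Bpifa1 in 4, the neuronal Gap43 in 22, Lgr5 of globose basal cells in 14, and Cd68 in 74, of which 57 had 10 or more counts. The deposited file name of each cell gives a set number from 1 to 12 and a position number from 1 to 8, and both sisters of a pair always share the set number.

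Coding sequences of 3 genes are shown, from the GENCODE M21 transcripts on GRCm38, because they separate the abundant Sprr2a copies from the rarely counted Sprr2e and Sprr2f. Capitals mark in-frame repeats of the form CCNGANCCN, which encode the proline-rich units.
Sprr2a1: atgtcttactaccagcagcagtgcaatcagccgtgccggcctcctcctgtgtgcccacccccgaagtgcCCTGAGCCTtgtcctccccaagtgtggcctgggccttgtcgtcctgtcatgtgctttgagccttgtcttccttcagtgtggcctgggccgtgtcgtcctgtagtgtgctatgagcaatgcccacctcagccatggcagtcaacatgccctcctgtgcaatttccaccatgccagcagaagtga
Sprr2e: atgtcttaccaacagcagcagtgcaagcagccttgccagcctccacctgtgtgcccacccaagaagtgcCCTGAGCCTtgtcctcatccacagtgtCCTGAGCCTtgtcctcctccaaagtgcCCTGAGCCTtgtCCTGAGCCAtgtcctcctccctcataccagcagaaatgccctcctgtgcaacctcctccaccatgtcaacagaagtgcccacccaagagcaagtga
Sprr2f: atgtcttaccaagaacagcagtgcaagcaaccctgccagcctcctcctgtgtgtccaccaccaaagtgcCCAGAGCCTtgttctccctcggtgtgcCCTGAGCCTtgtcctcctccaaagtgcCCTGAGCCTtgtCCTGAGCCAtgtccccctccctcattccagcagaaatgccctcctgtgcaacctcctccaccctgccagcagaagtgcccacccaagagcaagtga
The repeat stood 4 times in Sprr2e and in Sprr2f, 1 time in Sprr2a1, 11 times in Sprr1a and 13 times in Sprr1b. Sprr2e and Sprr2f were identical at 90.6% of aligned bases. The coding sequence of Sprr2a1 was identical to that of Sprr2a2 over all 252 bases, and to that of Sprr2a3, a family gene outside the 9, at 249 of them. Of all windows of 150 bases in the Sprr2a1 transcript, 89.6% also occurred in a transcript of another Sprr gene, and 89% of those of Sprr2a2 did. None of the windows of Sprr1a, Sprr1b, Sprr2d, Sprr2e, Sprr2f, Sprr2h or Sprr3 was shared. The counts of Sprr2a1 and Sprr2a2 are therefore uncertain as separate genes. The 2 genes overlap on the plus strand of chromosome 3 (GRCm38), Sprr2a1 at 92215799 to 92221911 and Sprr2a2 at 92215920 to 92256724. Sprr2d (92339140 to 92340873), Sprr2e (92352143 to 92353449), Sprr2f (92365187 to 92366442) and Sprr2h (92385685 to 92387324) follow downstream on the same strand. Sprr1b (92436809 to 92438789), Sprr3 (92456502 to 92458720) and Sprr1a (92483952 to 92485895) lie beyond them on the minus strand.

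Sequence before the start sites was compared as well, since members that lie side by side were counted so unevenly. RefSeq windows (GRCm38.p6) were found for all 9 members, and 3 are shown 5′ to 3′ on the strand of the gene, from the bases before the start that no annotated exon of that gene covers. Capitals mark 3 motifs, which were searched on both strands and did not overlap each other. The AP-1 motif was taken as TGANTCA. The octamer motif was taken as ATTTGCAT. For the TATA box the letters were TATAAA.
Sprr2f, chr3:92364937-92365186, plus strand: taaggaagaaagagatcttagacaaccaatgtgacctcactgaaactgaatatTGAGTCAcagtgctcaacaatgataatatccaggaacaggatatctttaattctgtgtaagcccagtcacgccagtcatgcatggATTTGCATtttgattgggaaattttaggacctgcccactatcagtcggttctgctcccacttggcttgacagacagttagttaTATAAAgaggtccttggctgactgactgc
Sprr1a, chr3:92485896-92486131, minus strand: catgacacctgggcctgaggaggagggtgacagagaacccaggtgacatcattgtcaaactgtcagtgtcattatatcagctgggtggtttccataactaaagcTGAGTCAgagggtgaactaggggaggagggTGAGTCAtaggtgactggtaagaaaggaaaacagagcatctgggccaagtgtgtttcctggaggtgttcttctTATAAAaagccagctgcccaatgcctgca
Sprr2a1, chr3:92215585-92215798, plus strand: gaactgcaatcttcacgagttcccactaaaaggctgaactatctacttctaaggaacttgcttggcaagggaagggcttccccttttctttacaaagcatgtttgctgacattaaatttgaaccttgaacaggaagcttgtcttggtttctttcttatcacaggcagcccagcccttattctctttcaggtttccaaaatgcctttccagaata
Within 250 bases before the start, Sprr2d, Sprr2e, Sprr2f and Sprr2h each held 1 AP-1 motif whose first base lay 193 to 198 bases before it, 1 octamer, 108 to 112 bases before it, and a TATA box 29 bases before it. Sprr1a held 2 AP-1 motifs, at 146 and 116 bases, and a TATA box at 43 bases, and Sprr1b held 1 AP-1 motif at 111 bases and a TATA box at 30 bases. Sprr3 had a TATA box at 33 bases and neither of the other motifs. None of the 3 motifs was in the windows of Sprr2a1, Sprr2a2 or Sprr2a3. The Sprr2a2 window starts at 92250397, inside the annotated span of that gene, with 0 bases before its first exon. The longest annotated Sprr2a1 transcript has 3003 bases, that of Sprr2f 609. Which start sites these cells use was not measured, so the absence of motifs is not read as a trait of the Sprr2a copies. Among 32851 RefSeq promoters, 6.75% held the AP-1 motif in the same 250 bases, 1.60% the octamer and 12.4% the TATA box. The 300-base windows of Sprr2a1 and Sprr2a2 were identical. A CACCC box (letters CACCC, both strands) was in 52% of all promoters; Sprr1a held 4, Sprr1b and Sprr3 held 1 each, and the windows of the other 6 members had none. A motif is a match of letters only, and its use in these cells was not measured.

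Among the 9 genes, Sprr2a1, Sprr2a2 and Sprr1a were counted in all 96 cells, and 31.8% of the 14463 genes that passed a filter on low counts (at least 10 counts in 10% of the cells or more) were too. Normalized counts, scaled by the ERCC transcripts, are used from here on unless a raw count or TPM is named. Sprr2a1 ran from 247 over a median of 11929 to 884637, and Sprr2a2 from 265 over 12670 to 942463. Both spanned more than 3 orders of magnitude. Sprr1a, which is also known from injured neurons, ran from 5.81 over 1337 to 238710. Sprr1a had 24 cells under 100 raw counts, 53 at 1000 or more and 14 at 10000 or more. The 90th percentile of normalized counts was at least 100 times the 10th, with 1 added to both, for Sprr2a1, Sprr2a2, Sprr1a and Sprr1b. That spread was common in these cells, since 48.7% of the 14463 genes had it.

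The other 6 members had medians of 0. Sprr1b was counted in 44 cells (45.8%, exact 95% interval 35.6% to 56.3%) and reached 19003 normalized counts. Sprr3, a marker of oral and oesophageal epithelium, was counted in 41 cells and reached 101961. Sprr2e was counted in 37 cells and reached 21003, and Sprr2f was counted in 23 and reached 91600. Sprr2h was counted in 8 cells, with a highest value of 1966, and Sprr2d in 3, with a highest value of 143. In each of these genes a few cells held most of the counts. The cell with the most held 99.5% of all Sprr2f counts, 91.7% of Sprr2d, 67.3% of Sprr2h, 59.5% of Sprr2e, 57.8% of Sprr1b and 51.5% of Sprr3. Sprr2d and Sprr2h did not reach 10 counts in 10% of cells, so 7 of the 9 members entered comparisons with all genes.

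**Figure D1:**
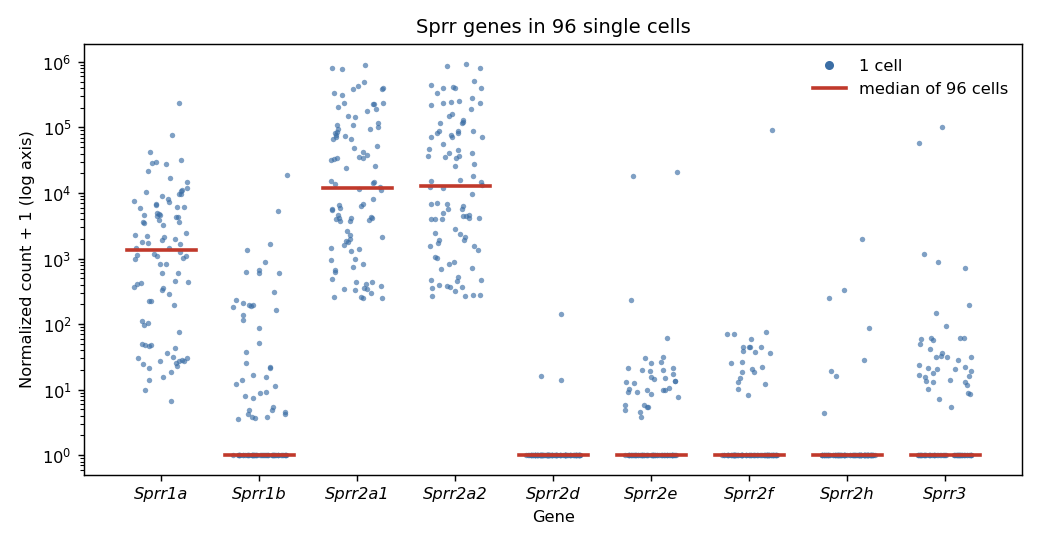
Normalized count plus 1 (log axis) of the 9 Sprr genes in each of 96 cells, with 1 point for a cell and a red line at the median. Sprr1a, Sprr2a1 and Sprr2a2 were above 0 in every cell, whereas the other 6 genes had medians of 0 and a few cells with high values.

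Levels of different members are compared in TPM (transcript abundances scaled to the length of the gene and to the library). Sprr2a2 had a median TPM of 715, Sprr2a1 of 170 and Sprr1a of 73. The 2 Sprr2a genes had nearly the same counts, with a ratio of Sprr2a2 to Sprr2a1 between 0.947 and 1.20 and a median of 1.06, so their TPM values differ far more than their counts. In the highest cell of each gene the TPM was 59228 for Sprr2a2, 15278 for Sprr2a1, 10877 for Sprr1a, 8840 for Sprr2f, 2716 for Sprr2e, 2700 for Sprr3, 741 for Sprr1b, 95.9 for Sprr2h and 12.3 for Sprr2d. Sprr1a exceeded Sprr2a1 and Sprr2a2 added in 16 of 96 cells by TPM and in 9 by normalized count, which takes no account of length.

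Summed over the 9 members, the normalized count ran from 539 over a median of 27486 to 2024913, and the 90th percentile was 397 times the 10th. The sum was under 1000 in 6 cells, from 1000 to under 10000 in 26, from 10000 to under 100000 in 30 and at least 100000 in 34. Sprr2a1 and Sprr2a2 made up a median of 96.6% of this sum of counts, which is not per length. They were under 50% of it in 10 cells and 1.15% in the lowest. How reads that match both rows were divided is not given. Some may thus be counted under both in this sum and in other values that add the 2 rows, which was not tested. The members took a median of 0.0796% of a cell's gene counts, over 1% in 20 cells and 6.62% in the highest, cell 4-2 (pair 4, daughter 2).

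Low counts of the rarely counted members followed the numbers in the file names. Sprr2f had 135168 raw counts in cell 4-2, with set number 1 and position number 8. All 18 other cells with that set or that position number had 14 to 74 counts, with a median of 35.0, whereas 4 of the remaining 77 cells had any and none of those had more than 10. The highest of the 18 amounted to 0.0547% of the count in cell 4-2. Sprr3 showed the same lattice around cells 4-1 and 46-1, which held 59609 and 68176 raw counts. All 34 cells that shared a number with either had Sprr3 counts, and 5 of the other 60 did. For Sprr2e, around cells 4-2 and 29-1, the corresponding numbers were 29 of 34 and 6 of 60. Sprr1b, around cell 46-1, was counted in 12 of 18 sharing cells and in 31 of the other 77. The pattern was not particular to this family: of 28 genes with 10000 or more counts in exactly 1 cell and a median of 0, 27 were counted in a larger share of the sharing cells. The libraries carried dual indexes, but whether the numbers stand for indexes is not given in the sources used here, and the cause was not tested.

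**Figure D2:**
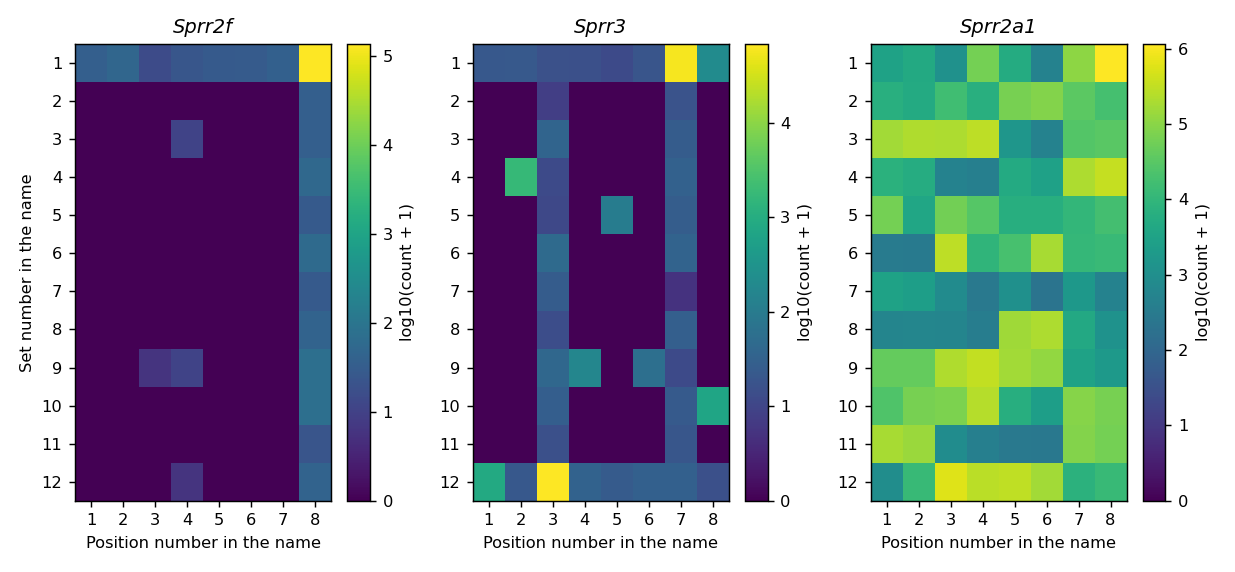
Raw counts of Sprr2f, Sprr3 and Sprr2a1 as log10(count + 1), by the set number (rows) and the position number (columns) in the name of each of the 96 cells. Low Sprr2f counts of 14 to 74 fill the row and the column of the cell with 135168 counts, and Sprr3 shows the same around 2 cells.

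The low end of the abundant members was read against this level. For each cell the summed count of the other cells with its set or position number was multiplied by 0.0547%, the highest share seen for Sprr2f. This gave a level of 279 to 1672 counts for Sprr2a1. The 17 cells whose Sprr2a1 count was not above it cannot be told apart from cells without the transcript. Sprr2a1 and Sprr2a2 were each above it in 79 cells and Sprr1a in 72. Sprr1b was above it in 40 of the 44 cells in which it was counted, Sprr3 in 12 of 41, Sprr2e in 12 of 37 and Sprr2f in 5 of 23. All 8 Sprr2h cells and all 3 Sprr2d cells were above it, but there the level was at most 1.04 and 0.126 counts. Nearly any count would have been above it, and for Sprr1b its median was 1.05 counts. For these 3 genes the comparison therefore says little about low counts.

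Sisters were compared by the ratio of the higher to the lower cell, with 1 added to each normalized count. For Sprr2a1 the median ratio over 48 pairs was 1.82, and 8 pairs (16.7%, exact 95% interval 7.48% to 30.2%) were 4-fold or more apart. Over the 14463 genes the median of this ratio was 2.39 and the median number of such pairs 18, and 78.7% of genes had at least 8. Sprr2a2 gave 1.82 and 8 pairs as well. Among all 4512 combinations of cells that were not sisters the median Sprr2a1 ratio was 12.0, and among the 288 such combinations within a set it was 11.5. Sisters thus lay closer in Sprr2a1 than other cells of the same set did. In 13 pairs there was a sister with 100000 or more Sprr2a1, and in 10 of them both sisters did. The widest pair was pair 2, with 936 in the lower and 48825 in the higher sister. That lower sister had 1151 raw counts, not above the level in cells sharing a number, so the size of this ratio is not settled. Pair 22 followed with 14516 and 392324, and pair 17 with 3839 and 93672.

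Sprr1a differed more often between sisters. Its median ratio was 4.79, and 29 of 48 pairs (60.4%, exact 95% interval 45.3% to 74.2%) were 4-fold or more apart, against a median ratio of 13.1 in non-sister combinations within a set. At least 29 pairs were that far apart in 17.2% of the 14463 genes, and at least 24 in 33.2%. Sprr3 with 25 pairs and Sprr2e with 24 also reached 24, but 21 pairs of Sprr3 and 23 pairs of Sprr2e had 1 sister at 0. In 16 of those 25 pairs of Sprr3 and 14 of the 24 of Sprr2e neither sister was above the level in cells sharing a number, so these differences are not read as differences in expression; for Sprr2f that held in 11 of 14 pairs, for Sprr1b in 3 of 23 and for Sprr1a in 1 of 29. In pair 39 Sprr1a was 17.6 in the lower and 6062 in the higher sister, the largest ratio (326). In pair 11 it was 12.9 and 1980, and in pair 10 it was 46.7 and 1728. The lower sisters of pairs 39, 11 and 10 had 25, 14 and 29 raw counts, not above the level in cells sharing a number. The sizes of these ratios are therefore not settled. Sprr1a reached 100 raw counts in both sisters of 30 pairs, in 1 sister of 12 and in neither of 6. Sprr1b reached 100 counts in both sisters of 2 pairs and in 1 sister of 15. Sprr2h did so in both sisters of 1 pair and in 1 sister of 2, and Sprr3 in 1 and 6. Sprr2d, Sprr2e and Sprr2f did in no pair for both sisters, and in 1, 3 and 1 pairs for 1 sister.

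**Figure D3:**
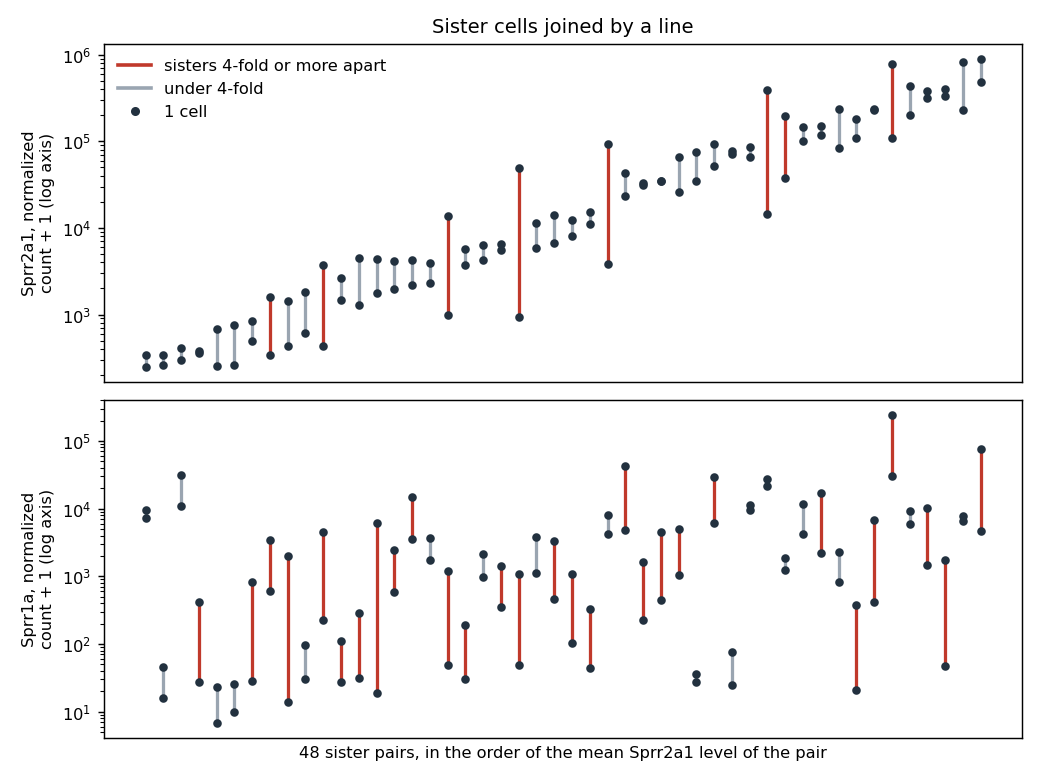
Normalized count plus 1 (log axis) of Sprr2a1 (top) and Sprr1a (bottom) in both sisters of 48 pairs, joined by a line that is red at a ratio of 4 or more. In Sprr2a1 8 pairs were 4-fold or more apart, in Sprr1a 29, and the order of the pairs by Sprr2a1 was not the order by Sprr1a.

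The share of the variance of log2 values that lay between pairs, the intraclass correlation, was 0.871 for Sprr2a2, 0.866 for Sprr2a1 and 0.618 for Sprr1a. An intraclass correlation of at least 0.6 was found in 2.67% of the 14463 genes, whose median was 0.159. Sprr2a2 and Sprr2a1 ranked 1 and 2 among them, as a pair of rows that share most of their sequence. Sprr1b had 0.422, Sprr3 0.306, Sprr2f 0.254 and Sprr2e 0.0447. When deviations were taken from the mean of each set, 0.833 was left for Sprr2a2, 0.827 for Sprr2a1, 0.543 for Sprr1a and 0.289 for Sprr1b. Sprr3, Sprr2f and Sprr2e then fell to -0.0266, -0.105 and -0.266, and the median of all genes to 0.00135. Subtracting set means lowers this correlation by construction, because each mean is taken from the same pairs. The falls therefore do not measure the part of the sets. Without pair 4 the summed level kept 0.868 of 0.872.

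Set 7 was low throughout: its 8 cells ranged from 253 to 3942 Sprr2a1, with a median of 1143. It was the 1 set in which every cell was under 10000, and 9 of the 12 sets held a cell at 100000 or more. Sprr1a in set 7 ran from 5.81 to 3661. The lowest set median of Sprr1a was in set 11, at 50.4, where Sprr2a1 had a median of 36078. What the sets stand for is not given in the sources used here, and the cause of the low values in set 7 was not tested.

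Between members, Sprr1a and Sprr2a1 had a Spearman rho of 0.40 over 96 cells and 0.36 within sets. Sprr1b and Sprr2a1 had a rho of 0.52, and Sprr1a and Sprr1b of 0.34. Sprr2a1 and Sprr2a2 had 1.00. The median over all 36 combinations was 0.19. These cells share sets and sisters, so the values are a description. Within pairs, the sister with more Sprr1a was the one with more Sprr2a1 in 24 of 48 pairs (50%, exact 95% interval 35.2% to 64.8%). For Sprr1a with Sprr1b it was 17 of 31 pairs.

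Cells that held the highest count of a member were looked at more closely, chosen after their values were seen. In pair 4, cell 4-1 had 238710 Sprr1a, 58774 Sprr3 and 108302 Sprr2a1, whereas its sister 4-2 had 30076 Sprr1a, 147 Sprr3 and 780629 Sprr2a1. Sprr2f was 35.5 and 91600 in the 2 sisters, and Sprr2e 4.93 and 17888. Cell 4-1 was the highest of 96 for Cnfn (cornifelin, an envelope protein) at 417139, for the wound keratin Krt6a at 775989 and for Krt16 at 92376. Cell 4-2 was the lowest of 96 for Krt14 at 468, against a median of 130761, and for Krt5 and Krt6a, with 8.13 Tgm1 and 5.42 Sbsn, both under the medians of 52.3 and 177. It also held 11064 raw counts of Cd68, a macrophage marker, with the immune markers Ptprc and Lyz2 at 0. Cell 46-1 had 884637 Sprr2a1, 101961 Sprr3, 76845 Sprr1a and 19003 Sprr1b, the most Tgm1 (transglutaminase 1, which cross-links the envelope) at 92380, and the most Trp63, but Ivl at 0. Its sister 46-2 had 489553 Sprr2a1 but 4626 Sprr1a, 59.2 Sprr3 and 24.1 Sprr1b. That sister also had the least Trp63 of 96 cells, at 68.5 against 29368 in cell 46-1. Cell 29-1 had 31696 Sprr1a and 21003 Sprr2e with 295 Sprr2a1, and its sister 29-2 had 10764, 6.71 and 413. Krt14 was low in both, at 1806 and 4943. Mki67, a proliferation marker with a median of 15436 over all cells, was 125 in cell 4-1, 81.3 in cell 4-2, the lowest of 96, and 95.7 in cell 46-1, whereas sister 46-2 had 33495. Sprr2f and Sprr2e in cell 4-1, Sprr2e in cell 29-2 and Sprr3 in cell 46-2 were not above the level in cells sharing a number. Low values of genes outside the family were not set against that level.

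A Sprr symbol was carried by 8 further rows. Sprr2a3 was counted in all 96 cells, from 3 over a median of 226 to 137804 raw counts, and Sprr2k in 80, up to 21972. Sprr2b was counted in 42 cells, up to 12414, and Sprr2j-ps, a pseudogene, in 39, up to 1614. Sprr2c-ps was counted in 15 cells and Sprr2g, Sprr2i and Sprr4 in 6 each, none above 554 counts. With the summed level of the 9 members, rho was 0.91 for Sprr2a3, 0.88 for Sprr2b, 0.31 for Sprr2k and 0.07 for Sprr2j-ps. All 26 cells with 100 or more Sprr2b counts had at least 43170 Sprr2a1 counts.

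Sprr2a3 counts stood at either of 2 levels beside Sprr2a1. In the 71 cells with 2000 or more Sprr2a1 counts, Sprr2a3 was under 2% of Sprr2a1 in 33 cells, with a median of 0.648%, and 10% or more in another 33, with a median of 13.1%. The remaining 5 cells lay in between. The high level was found from 2872 Sprr2a1 counts upward and in 21 of the 23 cells over 100000, and the low level up to 264562. Of 33 pairs with both sisters at 2000 or more, both were low in 12, both high in 10, and 1 low and 1 high in 6. In the other 5 pairs a cell lay in between. Since Sprr2a1 and Sprr2a3 share 19.0% of the 150-base windows of Sprr2a3, how the reads of these copies were divided bears on both levels, and its part was not tested. These limits of 2% and 10% were chosen after the values were seen.

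**Figure D4:**
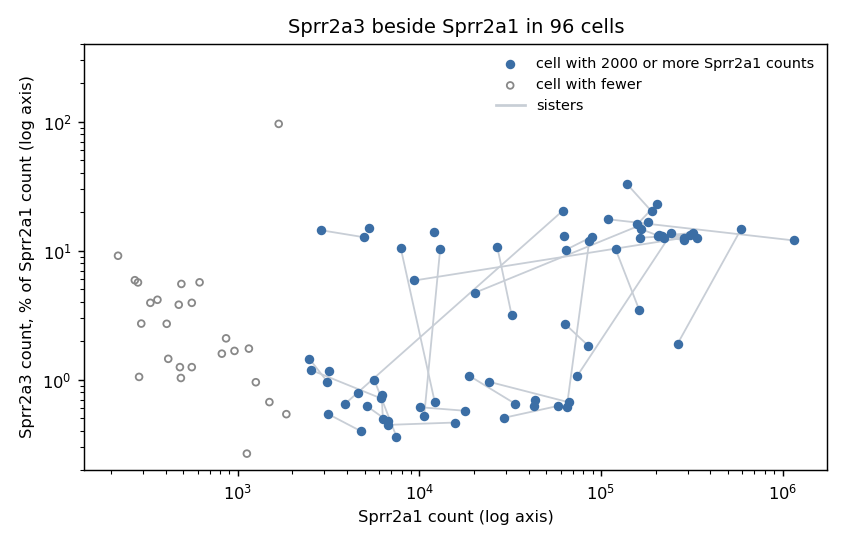
Sprr2a3 count as a percentage of the Sprr2a1 count (log axis) against the Sprr2a1 count (log axis) in 96 cells, with grey lines between sisters. Cells with 2000 or more Sprr2a1 counts lie in 2 bands, with medians of 0.648% and 13.1%, and 5 cells lie between them.

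Genes of the cornified envelope were compared with the summed Sprr level by Spearman's rho over 96 cells. Of 21 listed envelope genes 9 passed the filter, 8 of them had a positive rho, and the median of the 9 was 0.32. The median over 14452 genes without the Sprr rows was 0.0867, so a positive rho was common among all genes. Their positive share was not computed, so numbers of positive genes are not read as a trait of this or the later lists. The highest was Sbsn (suprabasin) at 0.42 and the lowest Krtdap at -0.11. The envelope precursor involucrin, Ivl, had 0.36, Tgm1 0.33 and Cnfn 0.33. A rho of at least 0.4 with the summed level was reached by 0.644% of those genes, and by 1 envelope gene. Tgm5, Hrnr, Lce3a, Lce3b, Lce3f and Lce1m, which belong to skin-type cornification, were at 0 in every cell, which, taking 3 of 96 cells as the limit, allows a share of up to 3.13% of such cells to have a count. Flg, the filaggrin gene, reached 1 count in any cell. Other listed genes were counted: Lor in 31 cells (up to 899 raw counts), Krtdap in 20 (up to 4113) and Crct1 in 5 (up to 1383). Rptn was counted in 3 cells, and Tgm3, Lce3c and Cdsn in 1 each. With the 7 members other than Sprr2a1 and Sprr2a2 summed, the median rho of the list was 0.195. For differences between sisters the median of the envelope list was 0.0953, from -0.0819 (Lor) to 0.257 (Evpl), and that of all genes 0.00308.

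Of 14 keratins, 12 passed and 10 had a positive rho, with a median of 0.15. Krt17, a keratin of wounded and activated epithelium, was highest at 0.45, and Krt18, a simple-epithelium keratin, lowest at -0.08. Of 12 S100 genes, 10 passed and 9 were positive, with a median of 0.27, or 0.16 with counts per library (CPM). The highest was S100a14 at 0.45 and the lowest S100a1 at -0.01. Basal cell genes had a median of 0.12 (0.0148 with TPM), from Itgb4 at -0.02 to Krt14 at 0.25. The 25 transcription factors had a median of 0.14 (0.0255 with CPM), and the lowest value was that of Ehf at -0.08. For differences between sisters the medians were -0.0202 for keratins, 0.0116 for S100 genes, 0.0268 for basal genes and -0.0148 for transcription factors.

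The 12 mitosis genes ran from -0.01 (Ccnb2) to 0.10 (Ccnb1), with a median of 0.02 that turned to -0.0883 with TPM. The 10 S phase genes ran from -0.07 (Tyms) to 0.24 (Pcna), with a median of 0.03 that turned to -0.0711 with TPM. The median over all genes moved too, from 0.0867 to 0.00177 with TPM and -0.00158 with CPM. With Sprr1a in place of the sum, the medians were 0.18 for the envelope list, 0.13 for S100 genes, -0.11 for mitosis and -0.11 for S phase. No gene of these lists had a rho of 0.4 or more with Sprr1a, and 0.152% of all genes did. The summed Sprr level had a rho of -0.31 with the spike-in size factor, -0.32 with the mitochondrial percentage of counts and 0.23 with the number of genes detected, and their part in the list values was not tested.

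**Figure D5:**
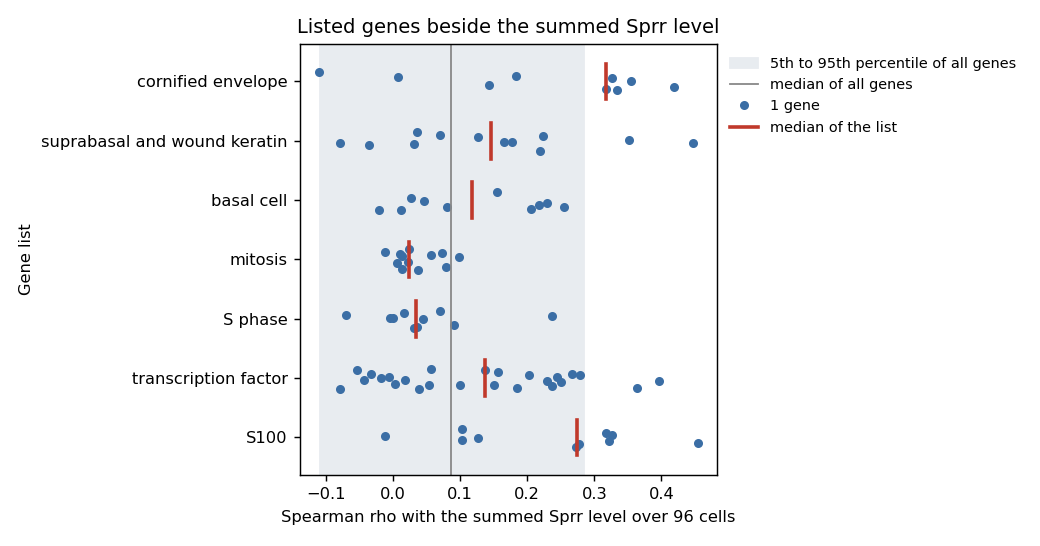
Spearman rho of each listed gene with the summed Sprr level over 96 cells, by list, with a red line at the median of each list, beside the 5th to 95th percentile (shaded) and the median (grey line) of all genes. Envelope and S100 genes have medians of 0.32 and 0.27, and mitosis and S phase genes of 0.02 and 0.03, which change sign with TPM. With TPM the median of all genes falls from 0.0867 to 0.00177.

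Outside the family, the 10 genes most like the summed level were Ngef, an exchange factor for small GTPases, at a rho of 0.60, Gm37087 at 0.57, Ralb, a small GTPase, at 0.56, Gm9817 at 0.55, Cd24a, a surface glycoprotein, at 0.54, Hspb1, a small heat shock protein, at 0.53, Gabarap, an autophagy protein, at 0.51, Gipc2 at 0.50, Gm10639 at 0.50 and Hsp90aa1, an inducible chaperone, at 0.49. Gm37087 was counted in 30 cells and lies on the minus strand at 92242933 to 92246241 of chromosome 3, within the span of Sprr2a2, so its reads and those of the opposite strand cannot be told apart without strand. Within sets the 10 values ran from 0.46 to 0.59. For differences between sisters they ran from -0.16 to 0.21, so this likeness did not carry over to the sisters of a pair. Low values belonged to Tm4sf1 (-0.37), Plppr4 (-0.36), Ptn, the growth factor pleiotrophin (-0.36), and Tex15 (-0.36).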

How the data were processed

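Per the labels and the study's methods, the authors trimmed the reads of each cell with Trimmomatic 0.39, mapped the pairs to GRCm38 and the ERCC sequences (STAR 2.7.11a, Ensembl annotation) and took gene counts, TPM values and mean coverage (signal) from StringTie 2.2.1. Whether reads were assigned by strand, and how reads with several matches were divided, is not given in the sources used here. The deposited counts equal the deposited coverage times transcript length divided by 75 (median 75.0 over 471 genes with 1 transcript and 1000 or more counts), whereas the study used longer reads, so a raw count here is a unit of sequenced bases, proportional to reads but not a number of reads. The members, the gene lists and the rule for named genes were chosen with earlier results of these data known.

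Counts were divided by a size factor of the cell, taken as the median ratio to the geometric mean for the 22 ERCC RNAs present in all 96 cells (0.378 to 1.89), and logarithms were taken after adding 1. Comparisons with all genes used 14463 genes, those reaching 10 counts in 10% of the cells or more. Exact binomial (Clopper-Pearson) 95% intervals of shares cover counting error only. For shares of cells they take sisters as independent, so they are too narrow where sisters resemble each other. TPM served to compare members per length, and coverage only for the check above. Named were all members, every other Sprr row, the 10 genes most and 5 least like the summed level, and the extremes of each list, together with genes at 0 in every cell; others are named as single cells required and were chosen after their values were seen. Python 3.11.15, numpy 2.4.6, scipy 1.17.1, pandas 2.3.3 and matplotlib 3.10.9 were used, and the intraclass correlation was tested on simulated data. Proteins were not analysed here, and some items the rule names are not reported here.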

Additional observations from a re-analysis of the deposited data

How the results depend on the processing

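The alternatives were other scalings (CPM, DESeq2's median of ratios over genes, the ERCC total and TPM), pseudocounts of 10 and 100, other limits, deviations from set means, each set of 8 cells left out, and, chosen after seeing the data, the level in cells sharing a number and leaving out pair 4. Of 353 alternative values, 328 stayed within 1.5 times the value given, within its binomial interval or within 0.1 of a correlation, and 25 did not. For differences between sisters, also chosen after seeing the data, the median rho turned from positive to -0.0202 for keratins and to -0.0148 for transcription factors, and was 0.0953 for envelope, 0.0116 for S100 and -0.0689 for S phase genes. Above the level in cells sharing a number, 0 members were counted in all 96 cells. At ratios of 2 and 1.5, 20 and 27 pairs differed in the summed level and 40 and 43 in Sprr1a, and a pseudocount of 100 left 21 Sprr1a pairs. The median rho of the envelope list fell to 0.195 without Sprr2a1 and Sprr2a2 in the sum. With TPM the median was 0.0148 for basal genes, -0.0883 for mitosis, -0.0711 for S phase and 0.168 for S100 genes, and with CPM it was 0.0255 for transcription factors and 0.162 for S100 genes. For mitosis it was -0.0794 with the median of ratios over genes, 0.171 with the mean of ranks and -0.0861 without Sprr2a1 and Sprr2a2, and for S phase and S100 genes it was -0.111 and 0.158 without them. The directions of the mitosis and S phase medians are therefore not settled. The median over all genes moved as well, from 0.0867 to -0.00158 with CPM and 0.00177 with TPM. With the median of ratios over genes it was 0.00997. Under each of these scalings the mitosis and S phase medians lay below that of all genes. Of the 10 genes most like the summed level, 6 stayed among the leading 10 with CPM and 0 with differences between sisters. The causes were not tested. Each set left out in turn gave intraclass correlations of 0.855 to 0.90 for the summed level and 0.587 to 0.688 for Sprr1a, and 332 to 489 for the ratio of the 90th to the 10th percentile. The level in cells sharing a number limits the low end: counts of Sprr2a1 not above it, at 279 to 1672, could not be read as expression.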
